A study of Mus musculus with 6 samples.

Results

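Matricellular proteins are secreted into the extracellular matrix (ECM), where they act on cells through integrins and other receptors rather than as structural fibers. The 10 genes described here encode the fasciclin-domain proteins TGFBI and periostin (Tgfbi and Postn), SPARC and its relative (Sparc and Sparcl1), osteopontin (Spp1) and the 5 thrombospondins (Thbs1, Thbs2, Thbs3, Thbs4 and Comp). They were taken by symbol from a table of 34745 genes. The set was chosen by family while the fold changes under D-gal were already known, Tgfbi being among the largest falls of the whole table. All differences between the groups are therefore given for these genes as a description, without a p-value.

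All samples are NOR-10 cells, an established line of fibroblasts from mouse skeletal muscle, grown in the same serum-containing medium and profiled by RNA-seq as the labels state it (the methods name a small RNA library kit). The D-gal group received 20 mg/mL D-gal (D-galactose, a sugar used to induce senescence) for 3 days. The control group received an equal amount of PBS, with n = 3 libraries in each group. The labels do not say whether the libraries came from separate cultures, so the spread between them may be technical. The comparison asks which genes differ in fibroblasts made senescent by D-gal.

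TGFBI and periostin bind collagen and integrins, and both are known as products induced by TGF-β. SPARC binds collagen and is needed for its normal assembly, whereas osteopontin is a phosphorylated ligand of integrins and CD44. Thrombospondins 1 and 2 form trimers that bind CD47 and CD36, and thrombospondin 1 can activate latent TGF-β. Thrombospondins 3 and 4 and COMP form pentamers, and COMP is abundant in cartilage and tendon.

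Control libraries held 16876087 to 20830349 counts, whereas D-gal libraries held 13759108 to 15157064, so the groups did not overlap in depth. Normalized counts are counts scaled by edgeR's TMM method to a common library size. A gene is termed called when its adjusted p-value is under 0.05 in edgeR's quasi-likelihood test over the 13407 genes tested, and differentially expressed when its log2 fold change is also at least 1 in size. Of 10 fibroblast markers all had counts, but Lum and Fap were too low to be tested. Among the 8 tested, 6 were called lower under D-gal (17.8% of all genes tested) and 1 was called higher (16.9% of all genes tested), while Pdgfra was not called, with a log2 fold change of -0.08. The marker called higher was Pdgfrb, with a log2 fold change of 0.19. The summed level of these markers in CPM (counts scaled by the effective library size) was 7150 to 7354 in control and 4692 to 4817 in D-gal cells. In control cells its largest parts were Col1a1 and Col1a2. Their mean levels were 2342 and 2140 CPM in control and 1434 and 1092 CPM in D-gal cells. Markers of myogenic, endothelial, immune and epithelial cells stayed low. The 9 markers of cartilage, bone and tendon, described with Comp below, were not low as a sum. They reached 262 to 274 CPM in control and 170.2 to 182 CPM in D-gal cells. The sums of 8 myogenic genes were 5.35 to 6.08 CPM in control and 3.68 to 4.02 CPM in D-gal cells, and those of 5 endothelial genes 5.25 to 5.82 and 4.41 to 6.31 CPM. The 6 immune genes gave 3.13 to 9.97 and 3.54 to 4.09 CPM, and the 4 epithelial genes 7.001 to 8.48 and 1.76 to 2.61 CPM, almost all of it from Cdh1. Pax7, Myf5, Myod1, Cd3e and Epcam were among those without a count in any library. In bulk RNA, fewer expressing cells and less RNA per cell cannot be told apart, and the part of the marker changes in the results below was not tested.

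The level of each gene was first compared per length, as CPM per kilobase of the union of its annotated exons (GENCODE M21, GRCm38). Thbs1 stood highest in the control group at 1381 ± 22.2 CPM per kilobase (SD, n = 3), number 15 among the 20257 genes with any count and an annotated length. Sparc followed at 375 ± 17.0, Thbs2 at 318 ± 7.03, Spp1 at 288 ± 11.96 and Postn at 149 ± 2.97 CPM per kilobase. These 5 genes were separated by a wide gap from Thbs3 at 8.36 ± 0.254, Sparcl1 at 5.41 ± 0.265 and Tgfbi at 2.63 ± 0.178 CPM per kilobase. Comp was close to the detection limit at 0.0591 ± 0.0250 CPM per kilobase. No neighbours in this order overlapped between control libraries. In the D-gal group the order was the same apart from Spp1 (207 ± 5.09 CPM per kilobase) and Thbs2 (204 ± 10.4), whose libraries overlapped.

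The order of the middle genes depends on the gene length. The deposited FPKM values divide Spp1 by 5372 bases, the sum of its distinct exons, whereas the union of these exons covers 1648 bases. Thbs2 and Sparc are divided by 5922 and 4423 bases, compared with unions of 7003 and 3788 bases. Their deposited positions also differ from those of GENCODE M21. In mean FPKM of the control group, Thbs2 (372) stood above Sparc (317), and Postn (106) above Spp1 (87.1). Thbs1 was highest and Comp and Thbs4 were lowest under both lengths.

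**Figure D1:**
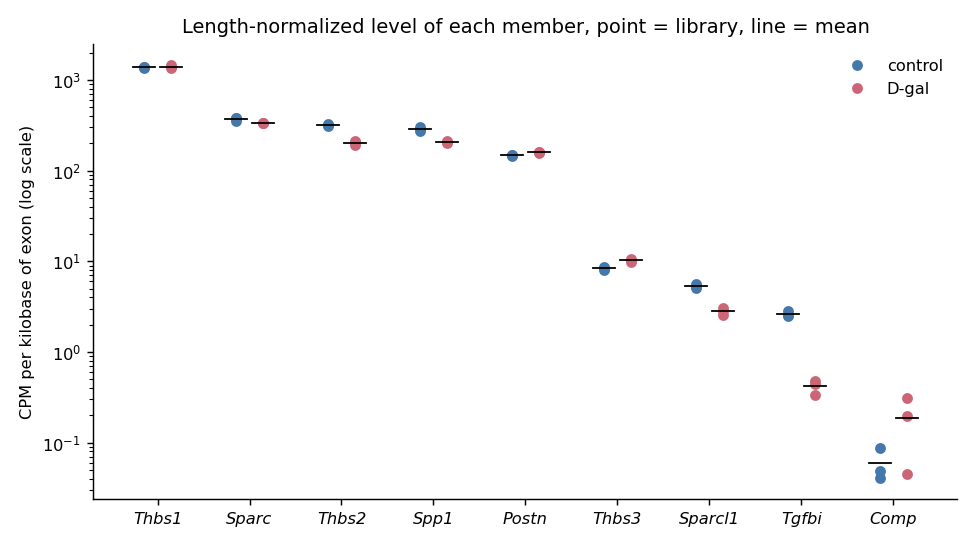
Level of 9 of the 10 genes in CPM per kilobase of exon (vertical log axis), with 1 point per library in blue for control and red for D-gal and a line at the group mean. Thbs1 lies at 1353 CPM per kilobase or more in every library, and the separation of the groups is widest for Tgfbi, from 2.63 to 0.421 CPM per kilobase on average. Thbs4 had no counts and is not drawn.

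Before the fold changes, the sequences upstream of 4 genes are shown, Tgfbi, Thbs2 and Spp1 as called members that were lower under D-gal, and Thbs3 as a called member that was higher. They come from RefSeq (GRCm38.p6), in which 7 of the 10 genes had an entry, and Sparcl1, Thbs1 and Comp had none. Each run is written 5′ to 3′ on the gene's strand. It ends directly before the RefSeq start for Thbs2, Spp1 and Thbs3, and 63 bases before it for Tgfbi, where an annotated exon begins. Capitals mark CAGAC, the core of a Smad-binding element, in either orientation.
Tgfbi, chr13:56609336-56609522, plus strand: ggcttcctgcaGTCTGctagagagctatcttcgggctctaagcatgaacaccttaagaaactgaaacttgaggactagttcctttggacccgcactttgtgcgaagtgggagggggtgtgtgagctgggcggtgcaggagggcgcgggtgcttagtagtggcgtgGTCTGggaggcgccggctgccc
Thbs2, chr17:14694263-14694512, minus strand: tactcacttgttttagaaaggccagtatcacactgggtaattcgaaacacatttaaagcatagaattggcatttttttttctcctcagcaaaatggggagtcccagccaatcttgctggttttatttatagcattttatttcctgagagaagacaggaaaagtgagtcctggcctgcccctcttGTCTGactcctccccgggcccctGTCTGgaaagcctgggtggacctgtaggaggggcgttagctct
Spp1, chr5:104434861-104435110, plus strand: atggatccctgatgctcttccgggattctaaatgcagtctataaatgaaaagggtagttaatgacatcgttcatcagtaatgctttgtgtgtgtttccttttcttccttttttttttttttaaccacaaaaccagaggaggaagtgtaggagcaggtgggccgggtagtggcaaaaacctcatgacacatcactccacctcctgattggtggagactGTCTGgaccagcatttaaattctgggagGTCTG
Thbs3, chr3:89214930-89215179, plus strand: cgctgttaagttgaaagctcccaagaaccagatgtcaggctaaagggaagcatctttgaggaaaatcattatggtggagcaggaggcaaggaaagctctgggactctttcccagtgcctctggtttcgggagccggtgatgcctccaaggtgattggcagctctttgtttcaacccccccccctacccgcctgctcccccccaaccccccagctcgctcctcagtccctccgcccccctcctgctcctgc

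In windows of 250 bases before each RefSeq start, with both strands searched, CAGAC occurred 2 times for Tgfbi, Thbs2, Thbs4 and the first start of Spp1. It occurred 1 time for Sparc, for the second start of Spp1 and for the first of the 2 starts of Postn, a gene called higher, and had no match for Thbs3 or the second start of Postn. The first start of Postn is at 54359267, and the second, at 54361107, lies beside the annotated start of the gene at 54361109. Whether CAGAC goes with the direction of change was not tested. Of all 32851 windows of this length in the RefSeq table, 42.2% hold this motif. The AP-1 motif TGANTCA was in none of the 9 windows of the 7 genes, against 6.75% of all windows. The GC box GGGCGG was found before Tgfbi, Thbs3 and Thbs4 (32.7% of all windows), and TATAAA before Postn, Spp1 and Thbs2 (12.4% of all windows), both on either strand. In the printed runs, no CAGAC match shared a base with a match of another motif. The window of Tgfbi was rich in CpG, with 15 CpG and 62.4% GC, compared with a median of 6 CpG and 52.4% GC. These matches describe the letters and say nothing of binding.

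Tgfbi (ENSMUSG00000035493), on chromosome 13 from 56609603 to 56639339 of GRCm38, differed most between the groups. Control libraries held 183, 220 and 159 counts of it, and D-gal libraries only 19, 26 and 25. Every D-gal library was far below every control library, and the lowest control value was 5.29 times the highest D-gal value after normalization. The log2 fold change was -2.64 (standard error 0.16), which is 6.25-fold lower under D-gal. No annotated gene overlaps its exons, and 1.01% of its words of 31 bases occur in other genes.

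Postn (ENSMUSG00000027750, chromosome 3, 54361109 to 54391037), the other fasciclin-domain gene, showed the opposite direction and a small size. Normalized counts of 21199, 21941 and 21961 without D-gal stood against 23426, 23034 and 23404 with it. The groups did not overlap, but the highest control and the lowest D-gal value were separated by only 1.05-fold. The log2 fold change was 0.10 (standard error 0.02), a rise of 7.32%, and this call was lost under DESeq2 and without D-gal replicate 3. Per kilobase of the exon union (8702 bases for Postn, 3771 for Tgfbi), Postn exceeded Tgfbi by 53.0- to 59.3-fold in control and by 337- to 476-fold in D-gal cells. The size of this ratio depends on the lengths, since the deposited FPKM values divide by 12088 and 2678 bases. In mean FPKM, Postn stood at 106 against 3.66 for Tgfbi in control, and at 116 against 0.599 in D-gal cells.

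Sparc (ENSMUSG00000018593, chromosome 11, 55394500 to 55420080) was slightly lower under D-gal. Control cells gave 24397, 24526 and 22595 normalized counts, compared with 21138, 21569 and 21352 under D-gal. All D-gal libraries were below all control libraries, and the log2 fold change was -0.16 (standard error 0.03). Sparcl1 (ENSMUSG00000029309, chromosome 5, 104079111 to 104113733), which encodes the SPARC relative hevin, was lower by a larger step. Its 291, 327 and 277 counts in control cells contrast with 123, 139 and 105 under D-gal, without overlap. The log2 fold change was -0.94 (standard error 0.10), which is 1.92-fold lower and just short of the size required for differential expression. Without D-gal replicate 2 it was -1.01.

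Spp1 (ENSMUSG00000029304), on the same chromosome 5 from 104435118 to 104441050, encodes osteopontin. Values were 8316, 7881 and 7667 normalized counts in control cells, and 5860.4, 5581 and 5754 after D-gal. The control libraries were all higher, and the log2 fold change was -0.47 (standard error 0.04), a decrease of 27.9%. An unspliced annotated gene, Gm42793, covers 18.8% of the exon bases of Spp1 on the same strand, and 14.3% of the sequence words of Spp1 occur elsewhere, so a few reads could be assigned to either. Gm42793 had 9 to 28 counts per library.

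**Figure D2:**
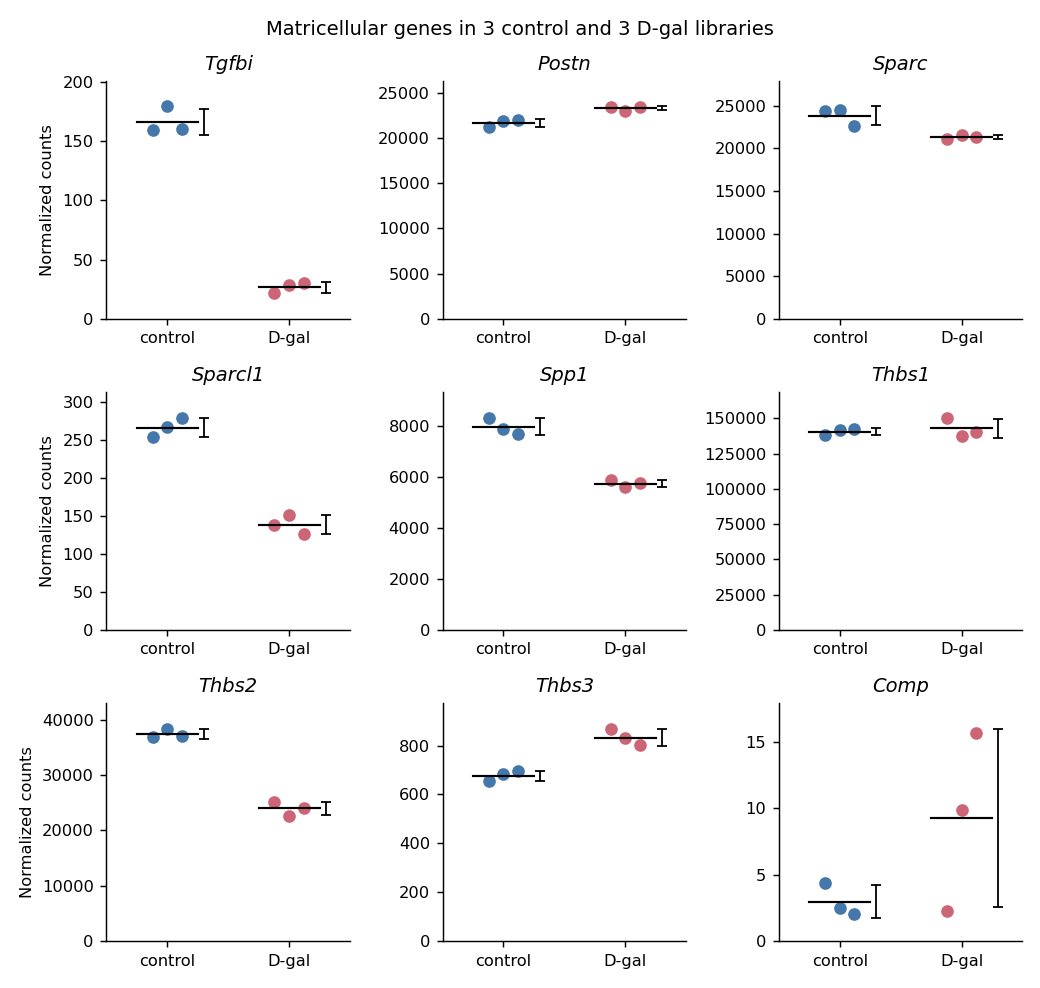
Normalized counts (vertical axes from 0) of 9 genes in the 3 control and 3 D-gal libraries, with 1 point per library, a line at the mean and a bar for the SD. The groups are apart for every gene drawn except Thbs1 and Comp. For Tgfbi the D-gal values lie between 21.3 and 30.1, and the control values between 159 and 179.5.

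The thrombospondins were not uniform. Thbs1 (ENSMUSG00000040152, chromosome 2, 118111876 to 118127133) had the most counts of all 10 genes, and its groups overlapped. Control cells gave 138131, 141854 and 142220 normalized counts and D-gal cells 150598, 137864 and 140253, of which D-gal replicate 1 was the highest. The log2 fold change was 0.02 (standard error 0.03) with a 95% interval from -0.05 to 0.10. It was -0.017 without D-gal replicate 1. Gm29233, which lies on the other strand over 3.43% of its exon bases, had no counts.

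Thbs2 (ENSMUSG00000023885, chromosome 17, 14665500 to 14694262) was lower in the D-gal group. Control cells gave 36822, 38373 and 37102 normalized counts, while D-gal cells gave 25104, 22663 and 24108. The groups were separated by more than the range within either of them, and the log2 fold change was -0.64 (standard error 0.04), a decrease of 36.0%. Thbs3 (ENSMUSG00000028047, chromosome 3, 89215180 to 89226837) was higher, with 654, 681 and 695 normalized counts in control cells against 869, 829 and 800.1 in D-gal cells. Its log2 fold change was 0.30 (standard error 0.06), a rise of 23.0%, without overlap. Mtx1 on the other strand covers 6.59% of the exon bases of Thbs3. The log2 fold change of Mtx1 was -0.10 (standard error 0.07) and it was not called.

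Thbs4 (ENSMUSG00000021702, chromosome 13, 92751590 to 92794818) had no count in any library. At 3 counts per library, this allows a level of up to 0.146 to 0.215 CPM, counting error only. Comp (ENSMUSG00000031849, chromosome 8, 70373548 to 70382065) gave 5, 3 and 2 counts in control cells and 2, 9 and 13 in D-gal cells. These overlap, since D-gal replicate 1 had as few counts as the lowest control library. Comp did not pass the filter on low counts. The 9 cartilage, bone and tendon markers summed to 262 to 274 CPM in control and 170.2 to 182 CPM in D-gal cells. Of these, Sox9 and Col2a1 were called lower, Runx2 and Mkx were not called and the other 5 were too low to be tested.

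Per length, thrombospondin 1 thus took a larger share of the thrombospondin transcripts under D-gal. Its share of the summed CPM per kilobase of the 5 genes was 80.6% to 81.1% in control and 86.5% to 86.9% in D-gal cells. Thbs2 made up 18.4% to 18.9% and 12.4% to 12.9%, and Thbs3 0.482% to 0.499% and 0.621% to 0.658%. The level of Thbs1 was 4.26 to 4.42 times that of Thbs2 in the control group and 6.71 to 7.01 times in the D-gal group. The size of this ratio and of the shares depends on the lengths used. In mean FPKM, Thbs1 stood at 1272 against 372 for Thbs2 in control, and at 1323 against 244 in D-gal cells. A ratio within a library shows unequal change and not which gene changed. Between the groups, Thbs1 was not called (log2 fold change 0.02), whereas Thbs2 was called lower (-0.64).

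Of the 10 genes, 8 passed the filter on low counts and were tested. Tgfbi alone was differentially expressed, where 4.21% of all genes tested were. At the adjusted p-value alone, Postn and Thbs3 were called higher (16.9% of all genes tested) and Tgfbi, Sparc, Sparcl1, Thbs2 and Spp1 were called lower (17.8% of all genes tested), while Thbs1 was not called. The groups did not overlap in 7 of the 8 genes, against 49.1% of all genes tested. The median log2 fold change of the 8 genes was -0.32, compared with 0.0036 for all genes tested. It was -0.15 without D-gal replicate 1 and -0.17 without the filter on low counts. Comp entered both of these fits, and the median was then the value of Sparc. Since the fold changes were known when the set was chosen, nothing is read from these counts. For the 8 genes tested the replicates were close, with coefficients of variation of 1.61% to 6.77% in control and 0.944% to 17.5% in D-gal cells. The highest of these was that of Tgfbi at its lower counts. Comp, at its few counts, reached 42.3% in control and 72.8% in D-gal cells. Together the 10 genes took up 1.36% to 1.39% of all counts in control and 1.28% to 1.36% in D-gal cells.

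**Figure D3:**
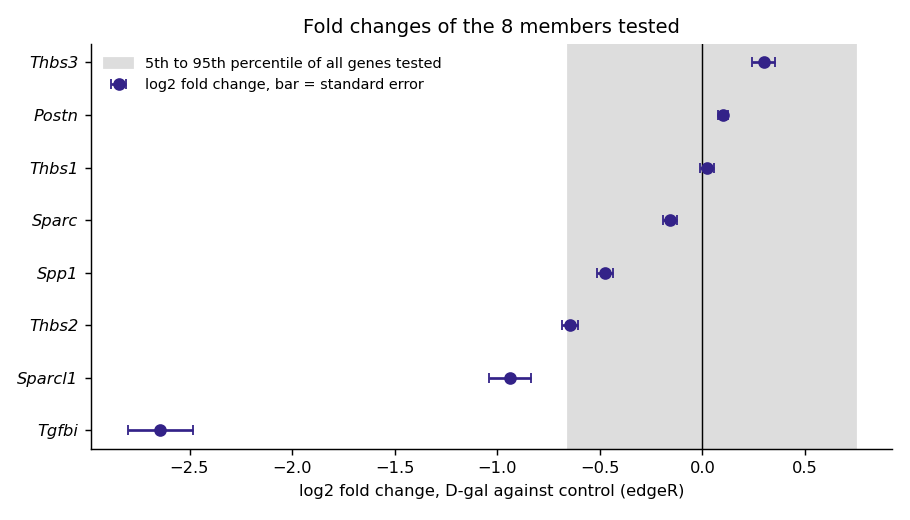
log2 fold change of D-gal against control (horizontal axis) for the 8 genes tested, with the standard error as a bar. The grey band runs from the 5th to the 95th percentile of all genes tested, from -0.65 to 0.75. Tgfbi at -2.64 and Sparcl1 at -0.94 lie outside the band, and Thbs2 at -0.64 lies just inside its lower edge.

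Related matricellular families were described by a list of 30 genes (stabilins, SMOC and SPOCK proteins, FSTL1, the CCN family, bone sialoproteins and proteins with thrombospondin repeats). Of these, 15 were tested, 4 were called higher and 5 lower. With 9 called of 15, 60.0% were called in either direction, compared with 34.8% of all genes tested, and the median log2 fold change was 0.0030. This list and those of receptors and TGF-β genes below were also chosen with earlier results of these data known. Their percentages and adjusted p-values are therefore descriptions, and nothing is read from the percentages. The smallest p-values were those of Spon2, Fstl1, Cyr61 and Thsd7b. Spon2, a secreted spondin, gave 310, 388 and 304 counts in control and 85, 68 and 77 in D-gal cells (log2 fold change -1.77, standard error 0.13, adjusted p = 4.5e-05 from edgeR). Fstl1, a SPARC-related glycoprotein, changed by -0.41 (standard error 0.03, adjusted p = 5.9e-05 from edgeR), with 6.66% of its sequence words in other genes. Cyr61, the CCN family member also named CCN1, rose by 0.31 (standard error 0.03, adjusted p = 1.0e-04 from edgeR). Other CCN genes, singled out afterwards, did not all share this direction. Ctgf (-0.25), Nov (-0.63) and Wisp2 (-0.40) were called lower. Wisp1 (0.12) had the direction of Cyr61 without overlap between the groups, but was not called. Thsd7b, which has thrombospondin repeats, rose from 29, 16 and 21 counts to 101, 126 and 94 counts (log2 fold change 2.62, standard error 0.23, adjusted p = 1.2e-04 from edgeR). The bone sialoprotein Ibsp and dentin gene Dspp, relatives of Spp1 that were also named afterwards, had no counts.

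Receptors and adhesion partners formed a list of 26 genes, of which 24 were tested. Here 3 were called higher and 12 lower, or 62.5% of those tested in either direction against 34.8% of all genes tested, with a median log2 fold change of -0.22. The smallest p-values belonged to Ddr2, Vcam1, Lrp1 and Cd44, all lower under D-gal. Ddr2, a collagen receptor, changed by -0.52 (standard error 0.03, adjusted p = 1.4e-05 from edgeR), and Vcam1, an adhesion molecule bound by integrins, by -0.67 (standard error 0.04, adjusted p = 2.4e-05 from edgeR). Lrp1, an endocytic receptor of thrombospondins, changed by -0.29 (standard error 0.02, adjusted p = 7.2e-05 from edgeR), and Cd44, a receptor of hyaluronan and osteopontin, by -0.57 (standard error 0.05, adjusted p = 1.1e-04 from edgeR). Ddr2 and Vcam1 overlap genes on the other strand over 0.972% and 0.688% of their exon bases. The 3 genes called higher, named after their values were seen, were the kinases Ptk2 and Ilk and the integrin chain Itga8. The integrin chains shared by most of these ligands were also singled out afterwards. Itgav (-0.04, standard error 0.33), Itgb1 (0.03, standard error 0.04) and Itgb5 (-0.06, standard error 0.04) were not called. Itgb3 was called at -0.52 (standard error 0.08, adjusted p = 0.00217 from edgeR). The 95% interval of Itgav ran from -0.79 to 0.72, with control replicate 3 and D-gal replicate 2 far above its other libraries. Among other integrin genes of the list, Itgb8 (-2.75, at 42 counts or fewer per library) and Itga6 (-1.69) were called lower. Itga8 was called higher at 1.27. The thrombospondin receptor Cd47, likewise singled out, was called at -0.35 (standard error 0.06, adjusted p = 0.00273 from edgeR), and Cd36 was too low to be tested.

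The TGF-β list held 24 genes, of which 23 were tested, 6 called higher and 7 lower (56.5% in either direction, against 34.8% of all genes tested), with a median log2 fold change of -0.09. Its smallest p-values were those of Tgfb2, Tgfbr1, Bhlhe40 and Nuak1. Tgfb2, a ligand, rose by 0.60 (standard error 0.05, adjusted p = 6.3e-05 from edgeR), while Tgfbr1, the type I receptor, changed by -0.54 (standard error 0.04, adjusted p = 8.3e-05 from edgeR). Bhlhe40, a transcription factor, changed by -1.31 (standard error 0.11, adjusted p = 1.1e-04 from edgeR), and Nuak1, a kinase, rose by 0.61 (standard error 0.05, adjusted p = 1.2e-04 from edgeR). Tgfb2 and Bhlhe40 overlap antisense genes over 2.14% and 2.51% of their exon bases. Chosen after their values were seen, the ligand Tgfb1 was called at -0.54 (standard error 0.08, adjusted p = 0.00149 from edgeR), and the TGF-β target Smad7 was at 0.0035 (standard error 0.10) and not called.

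**Figure D4:**
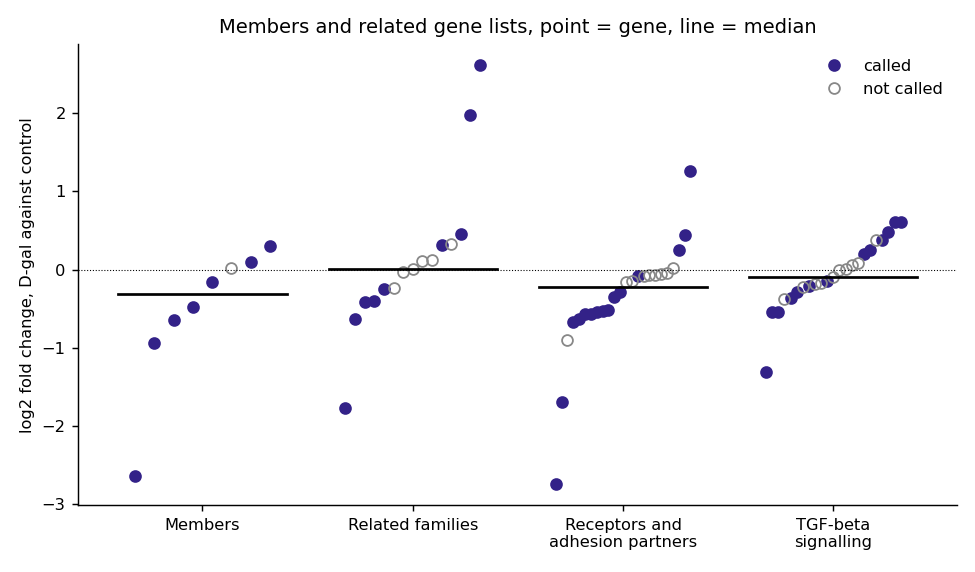
log2 fold change of D-gal against control (vertical axis) for the 8 members tested, 15 genes of related families, 24 receptors and adhesion partners and 23 genes of TGF-β signalling, each sorted from low to high. Filled points are called genes, open points are not, and lines give the medians of -0.32, 0.0030, -0.22 and -0.09. Called genes lie on both sides of 0 in each list.

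The genes most like Tgfbi over the 6 libraries were Tspan11, Gjb2 and Saa3, by the Euclidean distance between log2(CPM + 0.5) values centred on the control mean (0.331, 0.548 and 0.568). Tspan11 gave 98, 129 and 78 counts in control and 6, 11 and 8 in D-gal cells. Gjb2 had 75, 66 and 49 counts against 2, 3 and 2, and Saa3, with 7.44% of its sequence words in other genes, had 156, 148 and 92 against 15, 12 and 19. The pseudocount of 0.5 compresses low values, so genes of unequal fold change can lie close on this scale. For Thbs3, the largest rise among the 8 genes, the nearest genes were G3bp2, Arid3a and Alg2 (distances 0.0418, 0.049996 and 0.0587), with log2 fold changes of 0.29, 0.31 and 0.28. The exons of G3bp2 overlap a gene on the other strand over 23.7% of their bases. The 2 sets are descriptions over 6 libraries in 2 groups.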

How the data were processed

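RNA-seq was analysed for 3 control (PBS) and 3 D-gal libraries of NOR-10 cells, with groups and replicate numbers from the sample labels, and dose and duration from the methods. The labels name an RNA-seq library kit and the methods a small RNA kit for these libraries; the labels were followed, and which kit was used was not resolved. The deposited table gives raw read counts per gene and library, without normalization. The authors used FastQC for quality checks and Trimmomatic for trimming, and the submitters' processing notes name HISAT2 (version 2.0.4). The counting tool and its strand setting are not given in the sources used here. The FPKM values, which the authors computed from the same counts, served for the order of levels and as an alternative. All sample columns were matched by name.

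The counts were tested with edgeR (version 4.0.16, R 4.3.3), after TMM scaling and filterByExpr, with the quasi-likelihood F test, no covariate and p-values adjusted by Benjamini-Hochberg over 13407 genes. Thresholds followed the methods. The standard error of each log2 fold change was derived from F. The functions were tested on simulated counts. No pair of replicates agreed within sampling noise (chi-square over its degrees of freedom at least 6.00). Same-numbered libraries did not deviate together, so the numbers were not taken as pairs. The members and gene lists were chosen with earlier results of these data known. Named genes are all members, from each list the 4 called genes of smallest p, and the 3 nearest genes of Tgfbi and of the member with the largest rise. Other genes named are cell markers, genes that overlap a named gene, and list genes singled out after their values were seen. Exons, overlaps and words of 31 bases came from GENCODE M21, whose positions equal the table's for 6 of the 10 members.

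Alternatives were RLE size factors, DESeq2 (version 1.42.0), no filter, the replicate number as a block, a minimum of 10 counts per library, each library left out, limma (version 3.58.1) on log2(FPKM + 1), and counts thinned to the smallest library (seed 7).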

Additional observations from a re-analysis of the deposited data

How the results depend on the processing

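Among the members, Tgfbi, Sparc, Sparcl1, Thbs2, Thbs3 and Spp1 kept their direction and their call in all 13 alternatives, and the log2 fold change of Tgfbi ranged from -2.74 to -1.54, the latter on log2(FPKM + 1). Postn was no longer called under DESeq2, which left 1 member called higher, and without D-gal replicate 3. With each library left out, the members called higher ranged from 1 to 3 and those differentially expressed from 1 to 2. The additional gene was Comp without D-gal replicate 1 (log2 fold change 2.05) and Sparcl1 without D-gal replicate 2. Comp entered that fit only through its higher group, and it was not called without a filter (1.58). The median log2 fold change of the members was -0.17 with no filter on low counts, where Comp is included. It ranged from -0.35 to -0.15 with a library left out, the last without D-gal replicate 1, where Comp is also included. The log2 fold change of Thbs1 ranged from -0.017 to 0.048 with a library left out, and turned negative only without D-gal replicate 1. Of all genes, limma on log2(FPKM + 1) called 120 differentially expressed instead of 564. This alternative changed both the scale and the test, and the cause was not tested.

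With the replicate number as a block, 1 member was differentially expressed, 2 were called higher and 5 lower, 530 of all genes were differentially expressed, and 9 relatives, 13 receptors and 13 TGF-β genes were called. Deviations of same-numbered libraries correlated at -0.0018, -0.0057 and 0.021, and not every library correlated best with its own number. Depth limits Comp and Thbs4, for which a difference was not detectable or not measured at these counts.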
